A study of Mus musculus with 4 samples.

Results

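The tumour necrosis factor (TNF) superfamily ligands studied here were the 10 that T cells can make: Tnf, Lta, Ltb, Tnfsf14, Fasl, Tnfsf10, Cd40lg, Tnfsf4, Tnfsf8 and Tnfsf11. They were chosen by gene name among the spots that are not controls, and all 10 were on the array, with 15 of its 56605 probes and 10 of the 22475 genes that entered the test. RNA of in vitro differentiated Treg cells was measured on 4 single-colour Agilent arrays, 2 labelled Junbfl/flCd4-Cre and 2 labelled Junbfl/fl. Both genotypes were on the C57BL/6 strain and carried floxed alleles of Junb, whose product JunB pairs with other proteins to form AP-1 transcription factors. The Cre transgene, which only the Junbfl/flCd4-Cre mice have, is driven by the Cd4 promoter, which is active from the thymus onwards in T cells. Sorted naive CD4 T cells had been cultured for 3 days with plate-bound anti-CD3 at 1 µg/ml, anti-CD28 at 0.5 µg/ml, TGF-β1 at 5 ng/ml and antibodies to IFN-γ and IL-4 at 5 µg/ml. The labels give neither the age nor the number of the mice. Whether 2 arrays with one genotype hold RNA of different mice or of different wells is stated nowhere in the labels; the p-values therefore describe how these arrays vary, and part or all of that variation may be technical. The series set out to characterise Treg cells of mice with this deletion, and the question followed here is which of these ligands differed between the genotypes.

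TNF superfamily ligands are membrane proteins, some of them shed or secreted, that assemble as trimers and cluster their receptors on a neighbouring cell. Their receptors recruit TRAF adaptors that activate NF-κB and MAP kinases, or, for the receptors with a death domain, FADD and caspase 8. In T cells the genes are switched on or raised after stimulation of the antigen receptor, through NFAT, AP-1 and NF-κB factors, and the products act in costimulation, in killing of target cells and in the building of lymphoid tissue.

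Signals are given as scaled signals, the background-subtracted intensity of a probe divided by the 75th percentile of its array, so that 1 is that percentile. The 75th percentile was a processed intensity of 119 and 101 on the Junbfl/flCd4-Cre arrays and of 151 and 145 on the Junbfl/fl arrays. Of the spots, 66.3% and 61.0% were well above background on the Junbfl/flCd4-Cre arrays, against 60.5% and 59.3% on the Junbfl/fl arrays, and none was saturated. The number of arrays limits the precision. All 15 member probes were well above background on all 4 arrays. Probes differ in how strongly they light up, so a higher signal of one gene is not read as more RNA than that of another. Sums of signals over genes, given below, are weighted towards bright probes. Groups of genes by brightness rank probe signals and not amounts of RNA.

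Junb itself checks the labels. A probe that starts at base 707 of its transcript (chr8:87501881-87501940, mm9) had processed intensities of 4.11 and 1.47 on the Junbfl/flCd4-Cre arrays, not well above background, against 47.2 and 31.7 on the Junbfl/fl arrays. That is at least 5.71-fold lower, with the dim side set to the lowest signal well above background on its array. The limma adjusted p of 0.0396 over all probes is of the signals as measured and not of that bound. A probe nearer the 3′ end, at base 1745, had scaled signals of 8.82 and 99.8 on the Junbfl/flCd4-Cre arrays and of 64.7 and 62.7 on the Junbfl/fl arrays. It followed the label on array 1 alone. A further Junb probe was well above background on no array. Which part of Junb is floxed was not stated, a probe outside that part checks nothing, and every direction below rests on the labels.

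Lists of markers describe the cells. Each sum of signals covers every listed marker with a probe, also those too dim to be tested. Cd3e, a chain of the T cell receptor complex, had scaled signals of 75 and 68.8 on the Junbfl/flCd4-Cre arrays and of 77.8 and 82.0 on the Junbfl/fl arrays, and Cd4 had 17.8 and 16.6 in Junbfl/flCd4-Cre, against 26.7 and 23.2 in Junbfl/fl. Foxp3, the transcription factor that defines Treg cells, had 2.49 and 5.78 on the Junbfl/flCd4-Cre arrays, against 8.51 and 8.99 in Junbfl/fl. Summed over the 10 Treg cell markers the scaled signal was 237 and 260 in Junbfl/flCd4-Cre cells, against 433 and 416 in Junbfl/fl cells. Most of that sum was Capg, Tnfrsf18 and Il2ra. Capg had 120 and 113 in Junbfl/flCd4-Cre, against 205 and 226 in Junbfl/fl. Tnfrsf18 had 77.2 and 70.5, against 88.8 and 51.3, and Il2ra had 19.1 and 36.3, against 85.0 and 83.2. Of the 10, 7 were negative and 3 positive, with a median log2 difference of -1.05. Among those called, Ctla4, an inhibitory receptor, fell (log2 difference -1.47), and Ikzf2 (4.56) and Itgae (3.36) rose. Summed over the 13 T cell markers tested the scaled signal was 1139 and 1013 in Junbfl/flCd4-Cre, against 1228 and 1220 in Junbfl/fl. Of the 13, 7 were negative and 6 positive, with a median of -0.15, and Thy1 (-0.98) and Cd2 (-1.33) were called lower. Of the B cell markers 7 of 10 were tested, all 7 were positive, Ms4a1 (3.18) and Ebf1 (1.67) rose, and the sum was 8.24 and 5.65 in Junbfl/flCd4-Cre cells, against 4.02 and 1.73 in Junbfl/fl. Of the myeloid markers 9 of 16 were tested, all positive, none past the threshold in limma and 3 at an unadjusted p under 0.05, with a sum of 460 and 429 in Junbfl/flCd4-Cre, against 269 and 263 in Junbfl/fl; most of it was the Siglech probe, at 398 and 397 in Junbfl/flCd4-Cre, against 242 and 245 in Junbfl/fl, and the markers Adgre1, Spi1, Cebpa and Ly6g were well above background on no array. On all 4 arrays 5 myeloid markers were well above background, among them Csf1r, the receptor of a macrophage growth factor, at 3.92 and 9.31 in Junbfl/flCd4-Cre, against 1.25 and 3.18 in Junbfl/fl, and Itgam, an integrin chain, at 54.9 and 21.0 in Junbfl/flCd4-Cre, against 23.7 and 13.4 in Junbfl/fl. Of the CD8 and NK cell markers 4 of 10 were tested, 2 positive and 2 negative. Eomes was at least 4.53-fold higher, Cd8b1 (0.55) and Klrd1 (-1.04) did not pass, Ncr1 and Klrk1 were well above background on no array, and the summed signal was 5.67 and 6.84 in Junbfl/flCd4-Cre, against 5.07 and 5.75 in Junbfl/fl. 

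The label on RNA extraction names the colon. Of the colon epithelium markers 6 of 13 were tested, and Krt19, Krt20, Cdh1, Vil1, Muc2 and Cdx1 were well above background on no array. The sum over all 13 was 1.43 and 1.32 in Junbfl/flCd4-Cre cells, against 0.816 and 0.828 in Junbfl/fl cells. Slc26a3 was at least 8.44-fold higher. Epcam, Krt18 and Car1 were well above background on all 4 arrays, with log2 differences of -0.48, 0.15 and 0.39, and Krt8 gave 1.72 ± 0.31; none of these 4 passed (adjusted p = 0.0546 for Krt8). Of the stroma and endothelium markers 7 of 12 were tested, 6 positive with a median over the 7 of 1.01, Col1a1 and Dcn were at least 1.88-fold and 3.22-fold higher, Lum, Pdgfra, Pdgfrb and Cdh5 were well above background on no array, and the sum was 18.0 and 18.4 in Junbfl/flCd4-Cre, against 29.2 and 24.4 in Junbfl/fl. Most of that sum was Acta2, at 16.4 and 17.1 in Junbfl/flCd4-Cre, against 28.3 and 23.7 in Junbfl/fl. Scaling to the array median lowers every log2 difference by 0.53, so positive values below that turn negative with it. The part these shifts have in the ligand results was not tested.

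The lymphotoxin gene Lta and Tnfsf11, which encodes RANKL, were lower in Junbfl/flCd4-Cre cells and were the 2 of 10 ligands that passed the test (limma, adjusted p under 0.05 over all genes). No ligand was called higher, and 4 of 10 (Lta, Tnfsf11, Tnf and Ltb) had a p under 0.05 before adjustment, as did 41.4% of all genes. Over all genes tested, 1.43% were called lower, 7.03% higher and 8.46% either way. Tnf, Ltb and Fasl also had lower signals on both Junbfl/flCd4-Cre arrays without passing, and Cd40lg, Tnfsf4, Tnfsf8, Tnfsf10 and Tnfsf14 did not pass either. The median log2 difference of the 10 ligands was -0.43, beside 0.01 for all genes, and 7 of the 10 were negative, against 49.5% of all genes. The arrays of the genotypes did not overlap for 6 of the 10, which were lower for 5 and higher for Tnfsf10, where 75.1% of all genes did not overlap (38.5% lower, 36.6% higher). In RNA of whole cultures, fewer cells that make a ligand and less of its RNA per cell cannot be told apart.

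**Figure D1:**
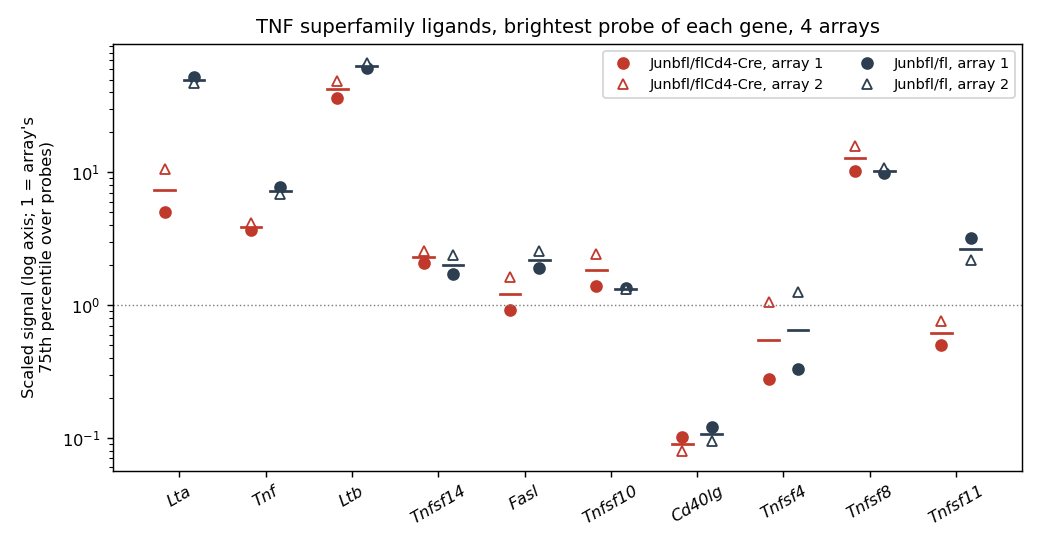
Scaled signal (log axis, 1 is the array's 75th percentile) of the brightest probe of each ligand on each of the 4 arrays, Junbfl/flCd4-Cre left of Junbfl/fl, filled circles for arrays numbered 1, open triangles for arrays numbered 2, bars for the geometric mean. Lta and Tnfsf11 show the widest gaps between genotypes, and the Tnfsf4 points split by array number in both genotypes.

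Lta, Tnf and Ltb lie next to each other on mouse chromosome 17, and their products are bound together in function. Lta encodes lymphotoxin α, secreted as a homotrimer that binds the TNF receptors. Ltb encodes lymphotoxin β, the membrane partner with which lymphotoxin α forms the heterotrimer that binds the lymphotoxin β receptor in lymphoid organ development, and Tnf encodes the inflammatory cytokine TNF. Because the fitted differences of these neighbours were of unlike size, their promoter windows are shown, from 250 bases before to 50 bases after the start of the gene (RefSeq, GRCm38.p6, 5′ to 3′ along the gene): Lta at chr17:35205302-35205601 on the minus strand, Tnf at chr17:35201958-35202257 on the minus strand and Ltb at chr17:35194257-35194556 on the plus strand. Capitals mark matches to NF-κB letters (GGGA, any 4 bases, CC), STAT letters (TTCNNNGAA) or AP-1 letters (TGANTCA) on either strand.
Lta: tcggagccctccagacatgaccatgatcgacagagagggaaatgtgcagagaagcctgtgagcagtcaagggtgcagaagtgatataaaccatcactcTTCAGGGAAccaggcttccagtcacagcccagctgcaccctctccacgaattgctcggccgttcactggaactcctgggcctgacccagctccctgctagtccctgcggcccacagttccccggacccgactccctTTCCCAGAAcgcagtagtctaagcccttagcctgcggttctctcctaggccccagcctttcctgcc
Tnf: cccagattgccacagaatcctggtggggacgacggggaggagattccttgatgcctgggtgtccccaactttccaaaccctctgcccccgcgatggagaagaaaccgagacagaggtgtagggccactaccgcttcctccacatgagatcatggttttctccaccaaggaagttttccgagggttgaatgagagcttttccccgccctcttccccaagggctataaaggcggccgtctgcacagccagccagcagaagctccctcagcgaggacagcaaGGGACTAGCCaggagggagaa
Ltb: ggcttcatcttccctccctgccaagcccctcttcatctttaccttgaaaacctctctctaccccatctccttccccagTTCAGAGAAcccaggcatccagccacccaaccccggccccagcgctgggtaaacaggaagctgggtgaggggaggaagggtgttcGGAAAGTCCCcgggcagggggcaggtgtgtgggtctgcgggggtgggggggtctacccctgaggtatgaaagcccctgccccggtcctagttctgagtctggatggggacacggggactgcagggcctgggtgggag
Lta held 2 STAT matches, TTCAGGGAA at -152 and TTCCCAGAA at -16 from the start, Tnf held 1 NF-κB match, and Ltb held 1 of each. Over the 32851 windows of this kind in the table, 8.3% held the STAT letters, 20.7% the NF-κB letters and 7.81% the AP-1 letters, which none of these 3 windows held. The NFAT core GGAAA, on either strand, was in all 3 and in 61.3% of all windows; it lies inside the NF-κB match of Ltb and overlaps the second STAT match of Lta. A match describes letters and is no evidence of binding, and whether it bears on the size of a difference was not tested.

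Lta had scaled signals of 5.06 and 10.6 on the Junbfl/flCd4-Cre arrays, against 52.0 and 46.9 on the Junbfl/fl arrays. The groups lay far apart, and the Junbfl/flCd4-Cre arrays also differed from each other, array 2 having 2.09 times the signal of array 1. The log2 difference was -2.75 ± 0.41 (SE, n = 2 each, 95% interval -3.90 to -1.60, adjusted p = 0.0439), a 6.74-fold lower signal in Junbfl/flCd4-Cre cells. The 1 Lta probe starts at base 1158 of its transcript (chr17:35340275-35340334, minus strand, mm9). Its difference lay at percentile 0.258 of all genes tested, and it was -3.36 between the arrays numbered 1 and -2.14 between those numbered 2. Lta is in the brightest of 5 equal groups of genes by signal, which had a median difference of -0.36. The call rests on a p close to the threshold: over 12 other ways of processing, the adjusted p ran from 0.0201 to 0.0988 and Lta passed in 8. Without a filter, 1 of these 12 ways, 0 of 36876 genes passed, so that way is not particular to Lta. Leaving out 1 array leaves a lone array in a genotype, so only the difference is given here. For Lta it then ran from -3.29 to -2.22. In the authors' deposited table the log2 difference of Lta was -2.41 (adjusted p = 0.0598).

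Tnf had scaled signals of 3.67 and 4.15 on the Junbfl/flCd4-Cre arrays, against 7.70 and 6.86 on the Junbfl/fl arrays, by the probe at base 1110 (chr17:35336795-35336854, minus strand, mm9). Its second probe, at base 938 (chr17:35336967-35337026), had 1.57 and 1.69 in Junbfl/flCd4-Cre, against 3.08 and 2.83 in Junbfl/fl. By both probes the Junbfl/flCd4-Cre arrays lay below the Junbfl/fl arrays, and replicates lay close together. The log2 difference was -0.90 ± 0.16 by the first probe (95% interval -1.36 to -0.44, adjusted p = 0.0552) and -0.86 ± 0.16 by the second (adjusted p = 0.0566 over all probes), so Tnf did not pass. In 4 of the 12 other ways of processing it did, with adjusted p from 0.0309 to 0.141 over all 12. The authors' deposited table gives Tnf a log2 difference of -0.63 (adjusted p = 0.0676) in an entry that names the probe at base 938.

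Ltb had scaled signals of 36.4 and 48.8 on the Junbfl/flCd4-Cre arrays, against 61.2 and 66.3 on the Junbfl/fl arrays (chr17:35333097-35333156, plus strand, mm9). The groups did not overlap, and the log2 difference of -0.59 ± 0.21 did not pass (95% interval -1.18 to -0.01, adjusted p = 0.119). Ltb is in the brightest group of genes too. It passed in 2 of the 12 other ways of processing, and was -0.38 without array 1 of Junbfl/flCd4-Cre.

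The probes of Lta and Tnf start 3.48 kb apart and those of Tnf and Ltb 3.70 kb apart. Of 8 tested genes listed as their neighbours none passed in limma, 2 had an unadjusted p under 0.05, 7 were negative and their median log2 difference was -0.39. The smallest p-values among them were those of Ddx39b, an RNA helicase, at -0.61 ± 0.17 (adjusted p = 0.0895), and Csnk2b, the regulatory subunit of casein kinase 2, at -0.48 ± 0.15 (adjusted p = 0.104). The difference of Ltb lay within the range of these 8 neighbours, -0.61 to 0.12, and those of Tnf and Lta lay below it. Transcripts outside that list, probed in the same stretch, gave log2 differences of 1.1 (AK054225), 0.18 (AK080258), 0.03 (LOC545198) and -0.25 (AF000427), and none passed. Whether Lta differed more than Tnf or Ltb was not tested.

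**Figure D2:**
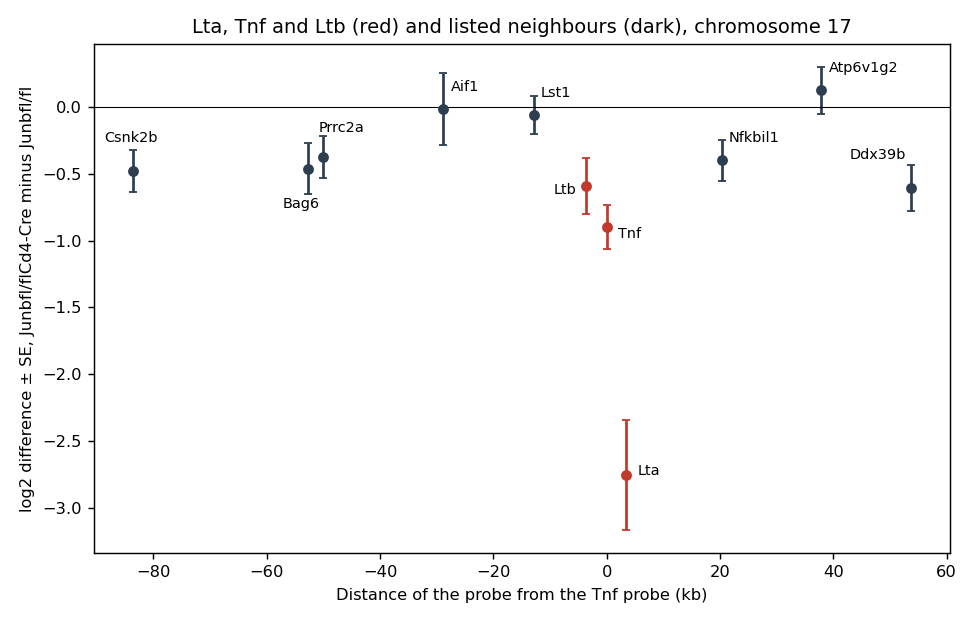
log2 difference (Junbfl/flCd4-Cre minus Junbfl/fl, ± SE, n = 2 arrays each) of Lta, Tnf and Ltb in red and of the 8 listed neighbours in dark, by distance of the probe from the Tnf probe in kb. Lta stands at -2.75, Tnf at -0.90 and Ltb at -0.59, while the neighbours lie between -0.61 and 0.12.

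Tnfsf11 encodes RANKL, the ligand that drives osteoclast formation and that supports lymph node and medullary thymic epithelial development. It had scaled signals of 0.497 and 0.760 on the Junbfl/flCd4-Cre arrays, against 3.21 and 2.20 on the Junbfl/fl arrays, by the probe at base 1984 (chr14:78677444-78677503, minus strand, mm9). The second probe, at base 1469 (chr14:78677959-78678018), had 0.219 and 0.279 in Junbfl/flCd4-Cre, against 1.13 and 0.745 in Junbfl/fl. By both probes the genotypes lay apart. The log2 difference was -2.11 ± 0.32 by the first probe (95% interval -3.03 to -1.20, adjusted p = 0.0459), a 4.32-fold lower signal, and -1.89 ± 0.28 by the second (adjusted p = 0.0444 over all probes). At the level of probes 3 of the 15 were called lower, those of Lta and Tnfsf11, against 1.25% of all probes called lower and 6.78% called either way. Between arrays of the same number the difference was -2.69 for number 1 and -1.53 for number 2, and it lay at percentile 0.512 of all genes. Genes of like brightness, in the middle of the 5 groups, had a median of -0.02. Over the 12 other ways of processing the adjusted p ran from 0.0286 to 0.104 and Tnfsf11 passed in 8. Without a filter, 1 of these 12 ways, 0 of 36876 genes passed. With 1 array left out the difference of Tnfsf11 ran from -2.42 to -1.81. The authors' deposited table gives -1.62 (adjusted p = 0.0546).

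The promoter windows of Tnfsf11 (chr14:78307994-78308293, minus strand) and Tnfsf14 (chr17:57194132-57194431, minus strand, GRCm38.p6) are set side by side, since Tnfsf11 was called and Tnfsf14, which alone of the 8 windows found held the AP-1 letters, was not. Capitals mark the same letters as above. Both windows were picked by result and letters, so they cannot tell whether the letters bear on the difference, which was not tested.
Tnfsf11: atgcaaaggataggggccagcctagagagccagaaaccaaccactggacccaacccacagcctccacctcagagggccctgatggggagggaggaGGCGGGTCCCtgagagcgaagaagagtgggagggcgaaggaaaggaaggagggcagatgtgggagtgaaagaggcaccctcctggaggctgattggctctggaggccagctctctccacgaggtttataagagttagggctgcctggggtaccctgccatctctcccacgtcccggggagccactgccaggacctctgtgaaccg
Tnfsf14: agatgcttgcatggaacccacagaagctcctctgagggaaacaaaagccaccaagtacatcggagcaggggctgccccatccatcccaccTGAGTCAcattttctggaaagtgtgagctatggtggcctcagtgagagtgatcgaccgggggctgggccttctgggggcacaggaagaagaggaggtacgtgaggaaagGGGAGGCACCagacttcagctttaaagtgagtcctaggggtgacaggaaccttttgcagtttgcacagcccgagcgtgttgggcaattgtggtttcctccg
Tnfsf14 held TGAGTCA at -160 and GGGAGGCACC at -51 from the start, and Tnfsf11 held GGCGGGTCCC, the NF-κB letters on the other strand, at -155. The CRE letters TGACGTCA and the ETS letters CCGGAAGT were in none of the 8 windows and in 1.79% and 3.89% of all windows. The windows of Fasl, Tnfsf8 and Tnfsf10 held GGAAA but none of the NF-κB, STAT or AP-1 letters.

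**Figure D3:**
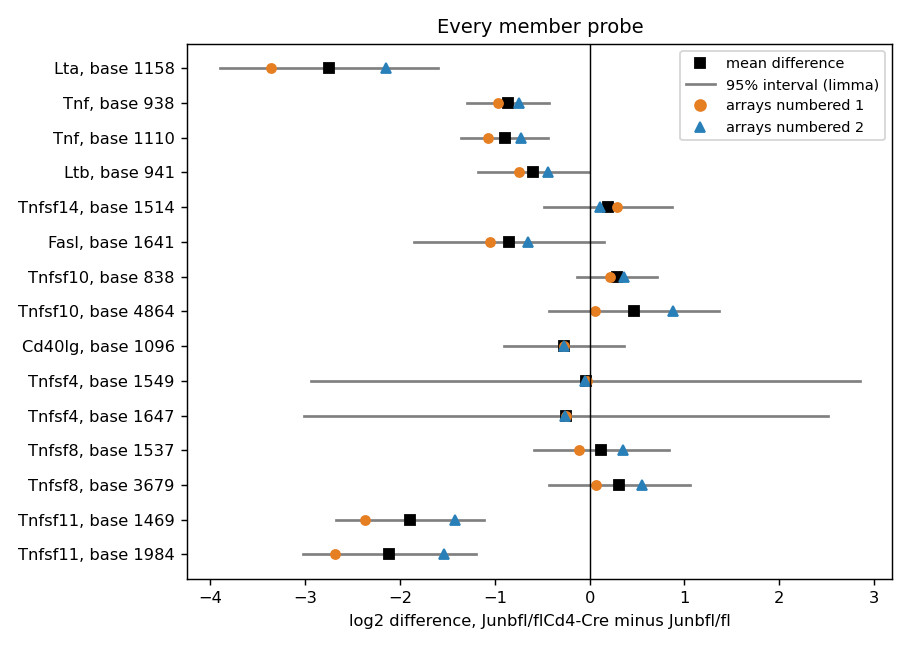
log2 difference (Junbfl/flCd4-Cre minus Junbfl/fl) of every ligand probe, named by gene and start in the transcript, with the limma 95% interval over 2 arrays each and the differences between arrays numbered 1 and between those numbered 2. Both probes of Tnf and of Tnfsf11 and the probes of Lta and, by a small margin, Ltb lie left of 0 with their whole interval, and the Tnfsf4 intervals are the widest.

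Among the ligands of death receptors are Fasl, which triggers apoptosis through Fas and is used by cytotoxic and activated T cells, and Tnfsf10, which encodes TRAIL. Fasl had scaled signals of 0.918 and 1.62 on the Junbfl/flCd4-Cre arrays, against 1.90 and 2.54 on the Junbfl/fl arrays (chr1:163711056-163711115, minus strand, mm9). The groups did not overlap and the log2 difference of -0.85 ± 0.36 did not pass (95% interval -1.85 to 0.15, adjusted p = 0.157); it ran from -1.26 without array 2 of Junbfl/flCd4-Cre to -0.44 without array 1. Tnfsf10 had 1.40 and 2.43 in Junbfl/flCd4-Cre, against 1.35 and 1.32 in Junbfl/fl, by the probe at base 4864 (chr3:27238508-27238567, plus strand, mm9), and 0.463 and 0.475 in Junbfl/flCd4-Cre, against 0.400 and 0.368 in Junbfl/fl, by the probe at base 838 (chr3:27241288-27241347). The Junbfl/flCd4-Cre arrays lay above the Junbfl/fl arrays by both, array 1 only just so by the first. The log2 differences of 0.47 ± 0.32 (adjusted p = 0.313) and 0.29 ± 0.15 (adjusted p = 0.232 over all probes) did not pass, and with scaling to the median of each array the first was -0.066. Without array 2 of Junbfl/flCd4-Cre the first was 0.07, and without array 1 it was 0.87. The files place the first probe upstream of the second on the chromosome, although its position in its transcript is further along, so the 2 positions refer to different transcripts.

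Cd40lg, Tnfsf4, Tnfsf8 and Tnfsf14 are costimulatory ligands. Cd40lg, which gives help to B cells and dendritic cells through CD40, had scaled signals of 0.101 and 0.0791 on the Junbfl/flCd4-Cre arrays, against 0.122 and 0.0954 on the Junbfl/fl arrays (chrX:54477066-54477125, plus strand, mm9). Its processed intensities, 12.1 and 7.99 in Junbfl/flCd4-Cre and 18.4 and 13.8 in Junbfl/fl, lay near the lowest signals well above background. Those were 4.40 and 5.77 on the Junbfl/flCd4-Cre arrays and 5.24 and 6.48 on the Junbfl/fl arrays. The groups overlapped, and both same-numbered pairs differed by -0.27. The log2 difference of -0.27 ± 0.23 did not pass (95% interval -0.90 to 0.36, adjusted p = 0.397). It depended on the processing. With normexp background correction it was 0.15 after 75th percentile scaling and -0.17 after quantile normalization. With quantile normalization alone it was -0.81, and with scaling to the median -0.80. Cd40lg passed in none of the 12 other ways of processing. The difference was -0.094 without array 1 of Junbfl/fl or array 2 of Junbfl/flCd4-Cre. Cd40lg is in the dimmest of the 5 groups of genes, which had a median of 0.92.

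Tnfsf4, which encodes OX40 ligand, had scaled signals of 0.279 and 1.05 on the Junbfl/flCd4-Cre arrays, against 0.331 and 1.26 on the Junbfl/fl arrays (base 1647, chr1:163348347-163348406, plus strand, mm9). The second array was 3.78-fold above the first in Junbfl/flCd4-Cre cells and 3.80-fold above it in Junbfl/fl cells. The second probe (base 1549, chr1:163348278-163348337) had 0.156 and 0.673 in Junbfl/flCd4-Cre, against 0.159 and 0.698 in Junbfl/fl, and split the same way. Both probes thus separated the arrays by number and not by genotype, and arrays with the same number lie in the same row of the slide, so number and row cannot be told apart. The log2 difference between genotypes was -0.25 ± 0.98 (95% interval -3.02 to 2.51, adjusted p = 0.855), and between arrays of the same number -0.25 and -0.26. Without array 2 of Junbfl/fl or array 1 of Junbfl/flCd4-Cre it was 0.71.

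Tnfsf8, which encodes CD30 ligand, had scaled signals of 10.3 and 15.8 on the Junbfl/flCd4-Cre arrays, against 9.81 and 10.8 on the Junbfl/fl arrays (base 3679, chr4:63492410-63492469, minus strand, mm9). The groups overlapped and the log2 difference of 0.31 ± 0.27 did not pass (95% interval -0.43 to 1.06, adjusted p = 0.403). Without array 2 of Junbfl/flCd4-Cre it was 0.0042, and without array 1 it was 0.62. The second probe (base 1537, chr4:63494489-63494548) gave 0.12 ± 0.26. Tnfsf14, which encodes LIGHT, a ligand of the lymphotoxin β receptor and of HVEM, had 2.09 and 2.56 on the Junbfl/flCd4-Cre arrays, against 1.72 and 2.37 on the Junbfl/fl arrays (chr17:57329192-57329251, minus strand, mm9). These groups overlapped as well, at a log2 difference of 0.20 ± 0.24 (95% interval -0.48 to 0.87, adjusted p = 0.548). Without array 1 of Junbfl/fl it was -0.034, and without array 2 of Junbfl/fl it was 0.43. With scaling to the median Tnfsf8 and Tnfsf14 were -0.22 and -0.33.

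**Figure D4:**
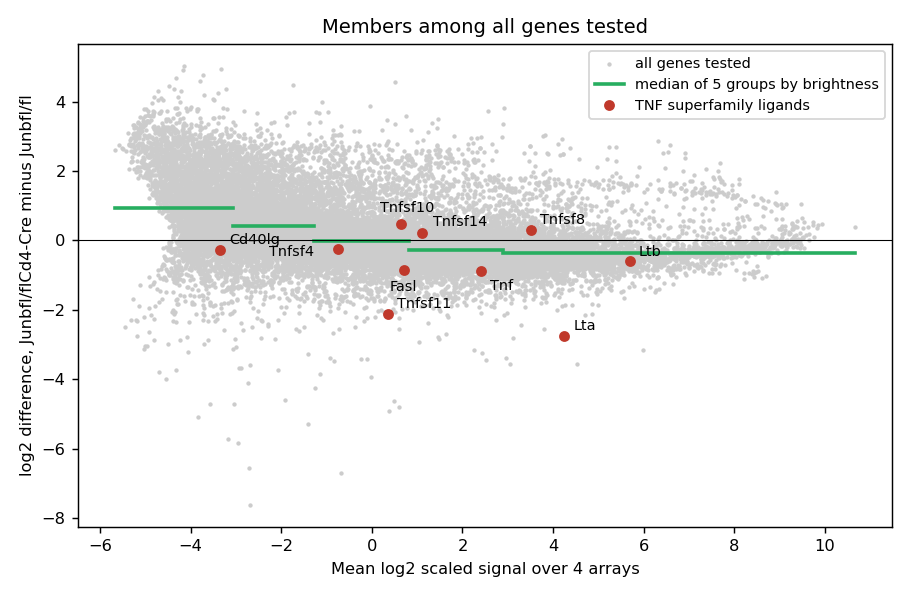
log2 difference (Junbfl/flCd4-Cre minus Junbfl/fl) against the mean log2 scaled signal over 4 arrays for all 22475 genes tested in grey, the 10 ligands in red and the median of each of 5 equal groups of genes by brightness as a green line. The medians run from 0.92 for the dimmest group to -0.36 for the brightest, and Lta and Tnfsf11 lie near the lower edge of the cloud.

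The difference between genotypes varied with brightness over all genes. The medians of the 5 groups from dim to bright were 0.92, 0.42, -0.02, -0.27 and -0.36, and Lta, Ltb and Tnfsf8 were in the brightest group, where 1.69% of genes were called lower. Tnf and Tnfsf14 were in the next, with 1.85% called lower, as were Fasl, Tnfsf10, Tnfsf4 and Tnfsf11 in the middle one, with 1.85%. From the dimmest group to the brightest, 17.4%, 9.83%, 4.47%, 1.65% and 1.8% of genes were called higher. Among all 1901 calls 83.1% were higher. That share was 21.0% with scaling to the median, 47.5% with normexp correction and 75th percentile scaling and 72.7% from the authors' log2 signals. The median of all genes moved by scaling, to -0.52 with the array median and 0.22 with the 75th percentile over bright probes, and relative to that median Lta lay between -2.98 and -2.36, Tnfsf11 between -2.34 and -1.50, Tnf between -1.13 and -0.59, Ltb between -0.83 and -0.22 and Fasl between -1.08 and -0.60 in the ways of processing run on all 4 arrays.

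**Figure D5:**
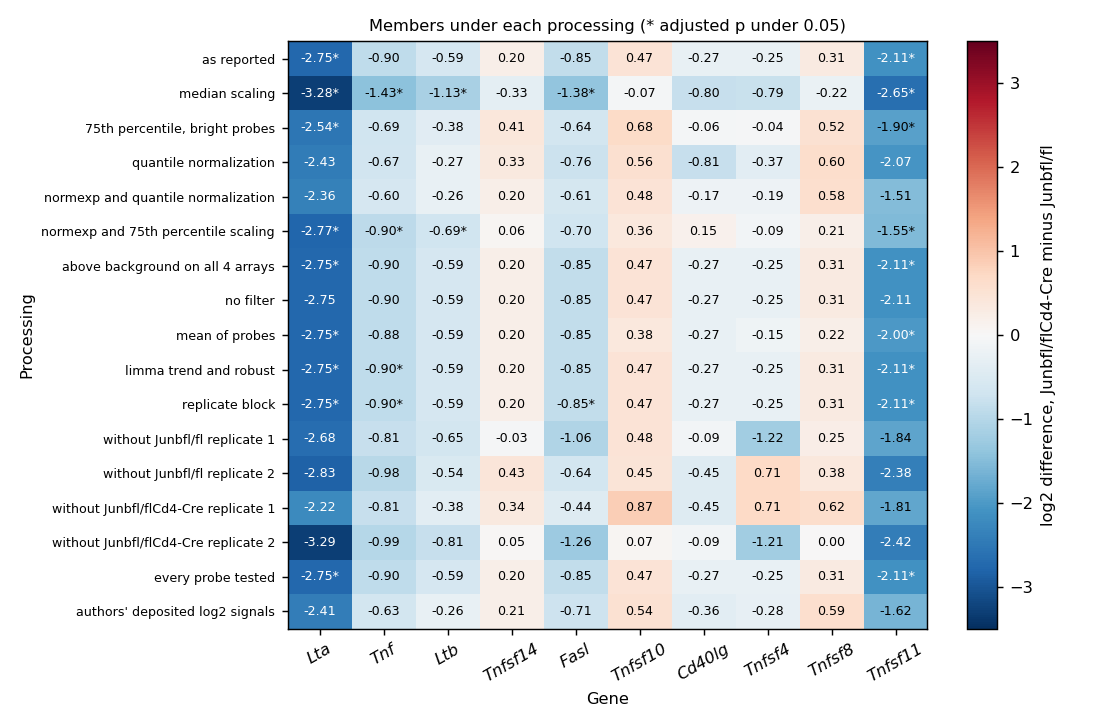
log2 difference (Junbfl/flCd4-Cre minus Junbfl/fl) of the 10 ligands under each way of processing, as colour and printed value, with an asterisk where the limma adjusted p was under 0.05. Lta and Tnfsf11 are blue throughout, with an asterisk as reported and in 8 of the 12 ways that keep all arrays, and no asterisk appears where 1 array is left out.

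The receptors of these ligands did not pass in limma. Of 11 listed, 8 were tested, 3 had an unadjusted p under 0.05, 4 were negative and 4 positive, with a median of 0.01, and Ltbr, Tnfrsf8 and Tnfrsf11b, the receptors for the lymphotoxin heterotrimer and CD30 ligand and the decoy receptor of RANKL, stayed too close to background to be tested. The smallest p-values were those of Tnfrsf11a, the RANK receptor, at 0.80 ± 0.21 (adjusted p = 0.0804), and Tnfrsf1b, the second TNF receptor, at 0.68 ± 0.20 (adjusted p = 0.0948). Tnfrsf11a had scaled signals of 0.499 and 0.670 on the Junbfl/flCd4-Cre arrays, against 0.319 and 0.346 in Junbfl/fl, and Tnfrsf1b had 10.2 and 7.69 in Junbfl/flCd4-Cre, against 5.72 and 5.34 in Junbfl/fl. In both the Junbfl/flCd4-Cre arrays were above the Junbfl/fl arrays. Tnfrsf1a, the first receptor of TNF and lymphotoxin α, had 3.51 and 3.66 in Junbfl/flCd4-Cre, against 4.6 and 5.03 in Junbfl/fl, and lay the other way (-0.42 ± 0.15, adjusted p = 0.116).

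Of the other TNF superfamily ligands, 4 of 8 were tested, with log2 differences of 0.05 to 1.66 and a median of 1.12. Tnfsf15, which encodes TL1A, the ligand of DR3, was called higher, with scaled signals of 0.277 and 0.358 on the Junbfl/flCd4-Cre arrays, against 0.0974 and 0.111 on the Junbfl/fl arrays. Its log2 difference was 1.60 ± 0.20 (adjusted p = 0.0367). It was the 1 superfamily ligand called higher among those tested. The signals of Tnfsf15 were low, and calls of higher were most frequent among dim genes, at 17.4% and 9.83% in the 2 dimmest of the 5 groups by brightness. Cd70, which neighbours Tnfsf14 at 43.7 kb between probes, gave 1.66 ± 0.55 and did not pass (adjusted p = 0.108).

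None of 18 adaptor and signalling genes and none of 14 NF-κB genes passed in limma, and 6 and 2 of them had an unadjusted p under 0.05. The adaptors had a median of -0.16 with 12 negative, and the smallest p-values were those of Map3k7, the kinase TAK1, at -0.86 ± 0.14 (adjusted p = 0.0505), and Tnfaip3, the NF-κB inhibitor A20, at 0.88 ± 0.19 (adjusted p = 0.0665). The NF-κB genes had a median of -0.14 with 9 negative, with Nfkbie at 0.65 ± 0.20 (adjusted p = 0.0989) and Rel at 0.49 ± 0.17 (adjusted p = 0.121). Of 5 genes listed under ligand shedding and secretion (Adam10, Adam17, Rhbdf2, Timp3 and Spen) 1 passed. Whether Spen has a part in shedding or secretion was not checked. Timp3, an inhibitor of the protease ADAM17 that sheds TNF, was at least 2.77-fold higher. Its scaled signals were 0.111 and 0.108 on the Junbfl/flCd4-Cre arrays, against 0.0141 and 0.0104, not well above background, on the Junbfl/fl arrays. Timp3 entered the test through the Junbfl/flCd4-Cre arrays alone. Its limma adjusted p of 0.029 is of these signals and not of that bound.

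In 2 lists of transcription factors and activation genes, 1 of 10 genes of the AP-1 list and 1 of 11 of the NFAT, Egr and Nr4a list passed. The AP-1 list also holds Maf, and the other list also holds Irf4 and Cd69. Whether the listed genes act on the ligand genes was not tested. Fos, a partner of the Jun proteins, was higher, with 1.23 and 1.32 on the Junbfl/flCd4-Cre arrays, against 0.478 and 0.612 on the Junbfl/fl arrays (log2 difference 1.23 ± 0.19, adjusted p = 0.0466). Nfatc2, an NFAT factor of T cells, was lower, with 12.5 and 10.8 in Junbfl/flCd4-Cre, against 26.2 and 25.5 in Junbfl/fl (-1.15 ± 0.16, adjusted p = 0.0395). The AP-1 list had a median of -0.42 and the NFAT, Egr and Nr4a list one of 0.14. The AP-1 list counts the deleted gene Junb itself, by its probe at base 1745 (-1.10). Over the 8 lists of the pathway and of chromosome neighbours, 78 of 88 genes were tested, 1 was called lower and 3 higher, beside 1.43% and 7.03% of all genes.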

How the data were processed

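Per the file headers, the authors scanned 4 one-colour arrays and read them with Agilent Feature Extraction 11.5.1.1, and the deposited processed intensity of each spot is background-subtracted and not scaled between arrays. The deposited spot flags, named here as other values, mark outliers and signals well above background. The authors' deposited table holds log2 signals and log2 differences, p-values with adjustment and moderated scores; no source used here says how its log2 signals were made.

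Outlier spots (108 to 215 of 59305 per array) were left out, spots of a probe averaged, and 295 probes dropped that had no such spot left on some array. The log2 processed intensity minus the array's 75th percentile was tested with limma 3.58.1 (lmFit, eBayes, R 4.3.3; Python 3.11.15 for tables) with no covariate. To enter, a probe had to be well above background on both Junbfl/flCd4-Cre arrays or both Junbfl/fl arrays (33606 probes). Genes given as at least some fold higher entered through the Junbfl/flCd4-Cre arrays alone. Such a fold sets the dim side to the lowest signal well above background, while the p-values are of the signals as measured. The brightest probe stood for its gene. Adjusted p-values are Benjamini-Hochberg over all genes, and called means under 0.05. Errors are standard errors. The fit was tested on simulated data with known changes. Symbols were updated through RefSeq (GRCm38.p6) by accession for 32994 probes, by current symbol for 10224 and by synonym for 520; 12867 kept the file's name. Probe positions are those of the files (mm9), and exon or UTR annotation was not used here. Promoters were found for 8 of 10 members, not for Cd40lg and Tnfsf4.

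The members and lists were chosen with earlier results of these data known. Named are all members and their probes, Junb, called genes of the lists, up to 2 genes of smallest p in lists without one, and Cd3e, Cd4, Foxp3 and bright markers. Cd70, Tnfrsf1a, the transcripts near Lta outside the list and some markers were named after their values were seen. Other scalings, background corrections, filters, probe rules, limma settings, the replicate block, leaving out each array and the authors' log2 signals were tried.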

Additional observations from a re-analysis of the deposited data

How the results depend on the processing

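Of the 10 ligands, Lta, Tnfsf11, Tnf, Ltb and Fasl were negative in all 16 alternatives, 12 with all arrays and 4 that leave out 1 array. Much of this was fixed in advance. The filters, the limma settings, the replicate block and the test of every probe left these log2 differences as they were. The genotypes did not overlap for these genes, so leaving out 1 array could not turn the sign. The count of all genes called (1901), of ligands called (2) and of called genes in the lists (15) moved as follows. Median scaling gave 9416 genes, 5 ligands and 51 list genes; normexp with 75th percentile scaling gave 7226, 4 and 44; the replicate block gave 6849, 4 and 37; limma with trend and robust settings gave 5037, 3 and 38. Quantile normalization gave 455, 0 and 3, normexp with quantile normalization 314, 0 and 5, and the authors' log2 signals 618, 0 and 7. Requiring all 4 arrays above background gave 1259 genes, and the 75th percentile over bright probes 23 list genes. No filter gave 0 calls by limma in each count, with 8825 genes at an unadjusted p under 0.05. Lta no longer passed with quantile normalization (-2.43), normexp and quantile (-2.36), no filter (-2.75) and the authors' log2 signals (-2.41), nor did Tnfsf11 (-2.07, -1.51, -2.11 and -1.62). Tnf passed with median scaling (-1.43), normexp and 75th percentile scaling (-0.90), trend and robust (-0.90) and the replicate block (-0.90), Ltb with the first 2 of these (-1.13 and -0.69), and Fasl with median scaling (-1.38) and the replicate block (-0.85). Median scaling turned Tnfsf8 to -0.22, Tnfsf10 to -0.066 and Tnfsf14 to -0.33, and normexp with 75th percentile scaling turned Cd40lg to 0.15; the causes were not tested.

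Leaving out any 1 array, which leaves a lone array assumed to vary like the other genotype, called 0 genes by limma, 0 ligands and 0 list genes (4954 to 8140 genes at an unadjusted p under 0.05). Lta then ran from -3.29 to -2.22, Tnfsf11 from -2.42 to -1.81, Tnf from -0.99 to -0.81, Ltb from -0.81 to -0.38, Fasl from -1.26 to -0.44, Cd40lg from -0.45 to -0.094, Tnfsf8 from 0.0042 to 0.62, Tnfsf10 from 0.07 to 0.87, Tnfsf14 from -0.034 to 0.43 and Tnfsf4 from -1.22 to 0.71. Same-numbered arrays deviated together across genes (r = 0.50), but with 2 pairs and no label that ties them, the number is not taken as a pairing. All 4 arrays share 1 slide and 1 scan, so slide or scan could not be fitted as a block.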
